A study of Caenorhabditis elegans with 45 samples.

Results

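In CB4856, the Hawaiian wild isolate of C. elegans, pos-1 RNAi was compared with the control, using 6 of the 45 libraries of the series: the 3 CB4856 libraries labelled POS1 and the 3 labelled CTR. Hermaphrodites were raised from the first larval stage on HT115 E. coli that made double-stranded RNA of pos-1, or on HT115 with the empty pL4440 vector as the control. Whole animals were collected as day 1 adults, at the first sign of egg laying, and each of the 3 biological replicates of a group pooled animals from 2 plates. For comparison, the report also uses the 3 CB4856 libraries on par-1 RNAi and the pos-1 RNAi and control libraries of 4 other strains (QX1211, EG4348, N2 and JU1088), with 3 libraries in each group. CB4856 carries a loss-of-function allele of ppw-1, and its treated and control animals share it. CB4856 and QX1211 are described as largely unable to silence germline genes by feeding, EG4348 as moderately able, and N2 and JU1088 as able.

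The pos-1 gene encodes a zinc finger protein that binds RNA. Its mRNA is made in the maternal germline and loaded into oocytes, and embryos without the protein misplace cell fates and die. In RNAi by feeding, double-stranded RNA from the food enters the intestine, passes into other tissues, and is cut by Dicer into short interfering RNAs. RNA-dependent RNA polymerases then copy the message into many secondary siRNAs, which are carried by Argonaute proteins such as PPW-1 in the germline. Worms are also heme auxotrophs. They cannot make heme and take it from the bacteria they eat, through a set of heme-responsive genes (hrg), several of which are expressed most strongly when heme is scarce.

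The libraries held between 6026861 and 13982652 assigned reads on pos-1 RNAi (median 8117772) and between 7411375 and 12844953 in the control (median 8662667). Expression of single genes is given in normalized counts, the counts that the authors scaled with DESeq2. Fold changes are those of edgeR's quasi-likelihood fit, with p-values adjusted by the Benjamini-Hochberg method over 18576 genes. Calls needed an adjusted p below 0.1 together with more than a 1.5-fold change. No reads fell on zeel-1 or peel-1 in the 9 CB4856 libraries, against 225 and 3 reads in the 9 N2 libraries. These neighbouring genes form an incompatibility element that N2 carries and CB4856 lacks. The replicates were separate libraries. The dispersion index, which is 1 where sampling noise alone parts a pair, was 16.5 between pos-1 RNAi replicates 1 and 2, 9.54 between replicates 2 and 3 and 4.23 between replicates 1 and 3, against 5.84 to 7.0 among the control replicates. The 3 replicates of a group came from 1 set of plates. The p-values measure the spread between such replicate libraries, estimated over all 45 libraries and not over the 6 of the comparison alone. Because the RNA came from whole animals, fewer cells of a type and less RNA per cell cannot be told apart.

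The mRNA of pos-1 did not fall measurably in CB4856. It stood at 5617, 6571 and 6355 normalized counts on pos-1 RNAi, against 6104, 6471 and 6672 in the control, and the groups overlapped. The log2 fold change was -0.05 ± 0.10 (SE, adjusted p = 1), and its 95% interval runs from -0.25 to 0.16, so that 83.9% to 112% of the control level is allowed. Without pos-1 RNAi replicate 1 the log2 fold change was 0.00085, and over the 6 libraries left out in turn it lay between -0.10 and 0.00085. Between pos-1 RNAi and par-1 RNAi, pos-1 differed by 0.11 ± 0.10 on the log2 scale (adjusted p = 0.584).

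The same bacteria lowered pos-1 in 3 of the 4 other strains. It averaged 521 ± 109 normalized counts on pos-1 RNAi and 6306 ± 104 in the control in JU1088, 951 ± 143 and 5679 ± 124 in N2, and 2755 ± 427 and 6515 ± 157 in EG4348 (SD, n = 3 each). In QX1211 it averaged 5027 ± 106 on pos-1 RNAi and 5472 ± 143 in the control, and its log2 fold change was -0.13 ± 0.10 (adjusted p = 0.971). The response of CB4856 minus that of JU1088 was 3.54 ± 0.15 on the log2 scale (adjusted p = 3.26e-19). The difference was 2.53 ± 0.15 from N2 (adjusted p = 1.25e-14) and 1.19 ± 0.14 from EG4348 (adjusted p = 1.63e-05). From QX1211 the response differed by 0.08 ± 0.14 (adjusted p = 0.9999, 95% interval -0.21 to 0.37). In the 4 other strains no treated library reached the control range, whereas in CB4856 2 of the 3 treated libraries lay within it.

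**Figure D1:**
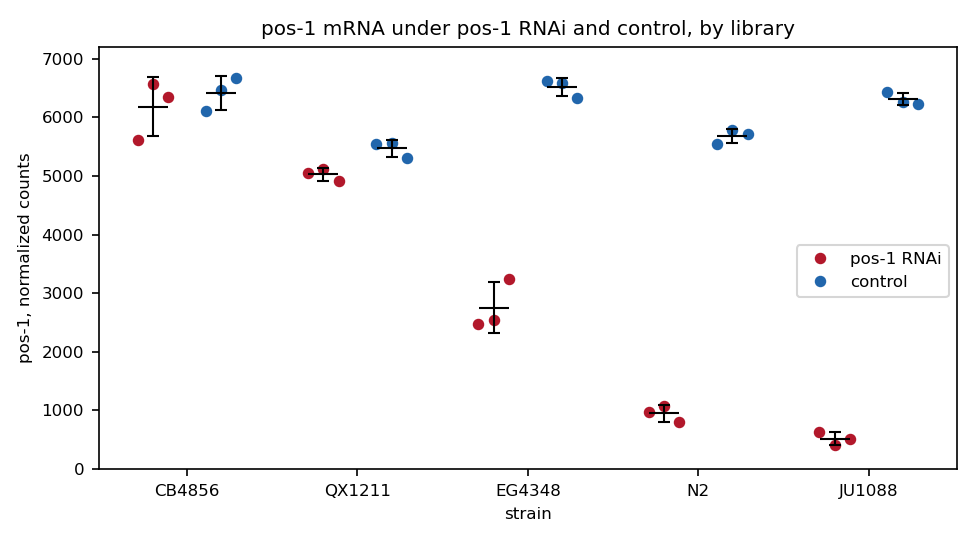
Normalized counts of pos-1 (vertical axis, from 0) in each pos-1 RNAi library (red, left of each pair) and each control library (blue, right) of the 5 strains. Points are libraries, and black marks and bars are means ± SD (n = 3). The CB4856 treated libraries stand at 5617 to 6571, within or close to the control range of 6104 to 6672, while the JU1088 treated libraries average 521.

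Other mRNAs did change in CB4856 on pos-1 RNAi. Of 18576 genes, 29 were called (0.156%), 11 of them higher (0.0592%) and 18 lower (0.0969%). The lower genes included the heme-responsive hrg-2, hrg-3 and hrg-7, the heme exporter mrp-5, 4 neprilysin-like peptidases and gsto-1. The higher genes included the aspartyl protease asp-14, the ferritin ftn-1, 4 pud genes and 2 C-type lectins. In each of the 29 genes no treated library overlapped a control library, which held for 9.27% of all genes in the table of normalized counts. The genes were called from these same libraries, so this separation is no further support for the calls. An unadjusted p under 0.05, which is given for gene lists further on, was found for 826 of the 18576 genes. The count of calls was 10 without control replicate 1, 14 without pos-1 RNAi replicate 2 and 16 without pos-1 RNAi replicate 3, and lay between 28 and 36 without each of the other 3 libraries. Every one of the 29 genes kept its direction in these 6 fits. With groups that did not overlap a change of direction was hardly possible, so this is no further support either. With the 6 libraries fitted alone, without the other 39 to estimate the spread, 3 genes were called (hrg-3, gsto-1 and asp-14).

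**Figure D2:**
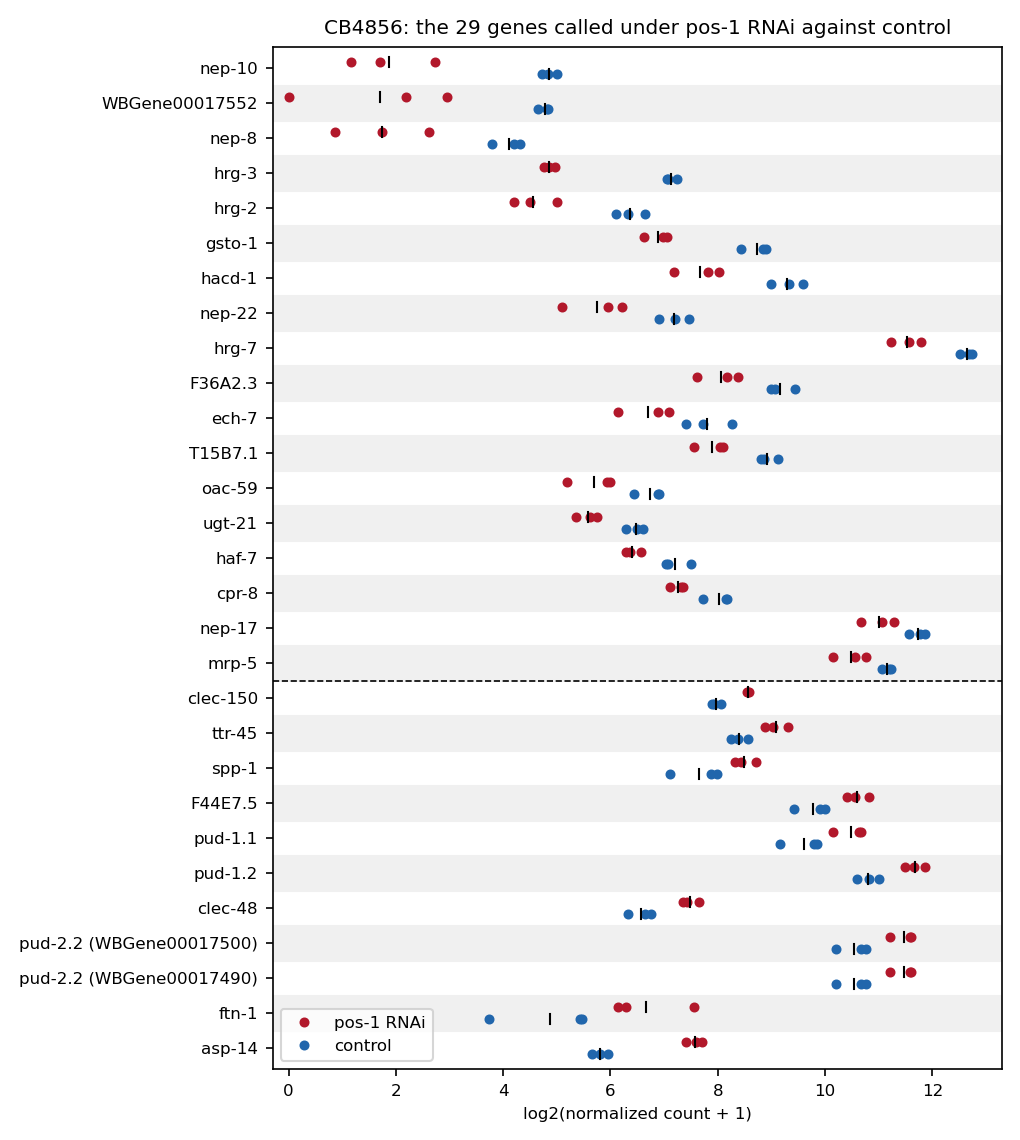
The 29 genes called in CB4856, one gene per row, with log2(normalized count + 1) on the horizontal axis. Each row holds the 3 pos-1 RNAi libraries (red, upper) and the 3 control libraries (blue, lower), and black ticks are means. Above the dashed line are the 18 genes that fell and below it the 11 that rose, and in no row do the red and blue points overlap.

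Among the heme-responsive genes, hrg-2, hrg-3 and hrg-7 fell. The hrg-3 mRNA, for a heme-binding protein that the intestine secretes and that carries maternal heme to oocytes and embryos, stood at 27.9, 26.0 and 30.4 normalized counts on pos-1 RNAi, against 134, 150 and 131 in the control. Its log2 fold change was -2.29 ± 0.36 (SE, adjusted p = 0.000929), which is 4.89-fold lower. For hrg-2, a membrane protein of the hypodermis, the libraries held 17.4, 30.9 and 21.5 normalized counts on pos-1 RNAi, against 67.7, 99.1 and 78.9 in the control. This gene fell by 1.87 ± 0.31 on the log2 scale (adjusted p = 0.00142). The most abundant of these genes was hrg-7, for a secreted aspartyl protease-like protein through which the intestine signals to neurons. It stood at 3548, 2409 and 3012 normalized counts on pos-1 RNAi, against 6801, 5832 and 6563 in the control, and fell by 1.09 ± 0.17 on the log2 scale (adjusted p = 0.000855). All 3 genes were called with each library of the comparison left out in turn.

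Of the 9 hrg genes tested, 3 were called lower and 0 higher, against 0.0969% and 0.0592% of all genes, and 7 had a log2 fold change below 0 (median -0.83, against 0 over all genes tested). The importers hrg-4 and hrg-1 did not pass the adjusted threshold. The plasma membrane importer hrg-4 stood at 98.8, 30.2 and 82.9 normalized counts on pos-1 RNAi and at 173, 110 and 185 in the control (log2 fold change -1.08 ± 0.33, adjusted p = 0.713). The endolysosomal importer hrg-1 stood at 406, 394 and 363 on pos-1 RNAi and at 578, 551 and 532 in the control (-0.51 ± 0.21, adjusted p = 1). For hrg-9, which moves heme out of stores, the values were 10.4, 11.2 and 9.77 on pos-1 RNAi and 23.6, 17.3 and 15.5 in the control (-0.83 ± 0.37, adjusted p = 1). These 3 genes were thus lower in every treated library than in any control library. Groups that did not overlap, in either direction, were found for 9.27% of all genes. The other hrg genes had log2 fold changes of -0.21 (hrg-10), 0.28 (hrg-5) and 0.69 (hrg-6), with overlapping groups. In the wider list of heme and metal response genes, which adds the metallothioneins mtl-1 and mtl-2 and the cdr genes, 3 of 16 tested were called, all lower and all hrg genes, with a median log2 fold change of -0.41.

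The ABC transporter MRP-5 exports heme from the intestine to other tissues. Its mRNA stood at 1732, 1132 and 1514 normalized counts on pos-1 RNAi, against 2388, 2126 and 2331 in the control (log2 fold change -0.63 ± 0.13, adjusted p = 0.0322). The call was lost without control replicate 1 or 3 or pos-1 RNAi replicate 2 or 3. Ferritin stores iron, and ftn-1 encodes the ferritin whose transcription follows the iron of the intestine. It rose 3.34-fold, with 77.2, 187 and 69.5 normalized counts on pos-1 RNAi, against 12.3, 43.2 and 42.1 in the control (adjusted p = 0.0491). Pos-1 RNAi replicate 2 was the highest, and the call was lost without it or without control replicate 1, where ftn-1 remained positive. The other ferritin, ftn-2, averaged 1469 ± 56.4 on pos-1 RNAi and 1448 ± 90.9 in the control (SD, n = 3 each; log2 fold change 0.03, adjusted p = 1).

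Several of these genes act in the intestine. The summed abundance of 4 intestinal markers, of which all 4 were tested and 0 called, was 297 to 313 TPM (a relative abundance corrected for transcript length) on pos-1 RNAi and 323 to 346 TPM in the control, so that the groups did not overlap. The sum is mostly act-5 (log2 fold change -0.22), while elt-2 stood at -0.05, ifb-2 at 0.12 and ges-1 at 0.19, with a median of 0.03. The summed sperm markers were lower in every treated library, and the 3 hypodermal markers summed to 509 to 820 TPM on pos-1 RNAi and 790 to 828 TPM in the control. In the control the sperm sum is mostly msp-142 (log2 fold change -1.42). The weakly expressed spe-9 and fog-3 stood at -0.71 and -0.73, and msp-19 at 2.55. The hypodermal sum is nearly all col-19 (-0.27), while the weakly expressed rol-6 and dpy-7 stood at 1.41 and 0.21. The part of these markers in the result was not tested.

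**Figure D3:**
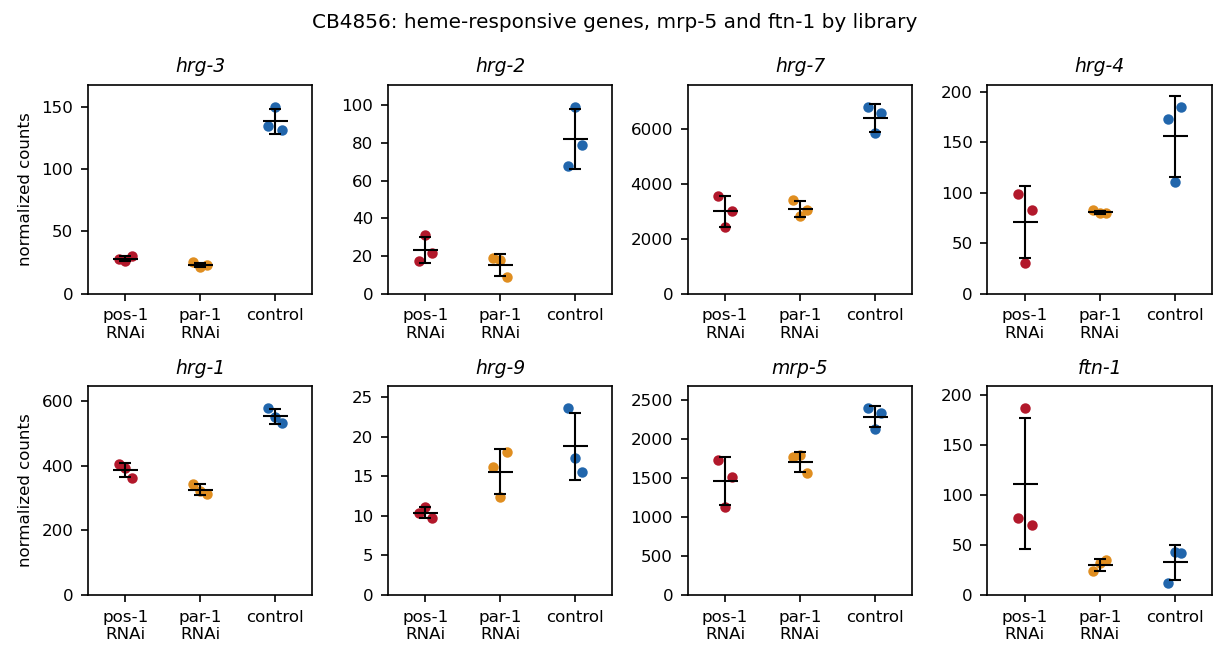
Normalized counts (vertical axes, each from 0) of 6 heme-responsive genes, mrp-5 and ftn-1 in the CB4856 libraries on pos-1 RNAi (red), on par-1 RNAi (orange) and in the control (blue). Points are libraries, and black marks and bars are means ± SD (n = 3). In hrg-2, hrg-3 and hrg-7 both treatments lie below the control, whereas ftn-1 is higher on pos-1 RNAi alone, where it averages 111 against 30.2 on par-1 RNAi and 32.5 in the control.

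Neprilysins are zinc metallopeptidases that cut small peptides outside the cell. Of 23 nep genes tested, 4 were called lower and 0 higher, against 0.0969% and 0.0592% of all genes. In the family 15 genes had a log2 fold change below 0 and 8 above, with a median of -0.18. Of these, nep-10 and nep-8 lie next to each other on chromosome II and next to the pseudogene WBGene00017552, which was called as well. On WBcel235 they span chrII:3399758-3402954 (nep-10, minus strand), chrII:3403835-3406851 (nep-8, plus strand) and chrII:3407147-3409800 (the pseudogene, plus strand). All 3 are weakly expressed. The normalized counts of nep-10 were 2.24, 1.25 and 5.67 on pos-1 RNAi, against 30.9, 25.5 and 27.7 in the control. Those of nep-8 were 2.35, 5.11 and 0.822 on pos-1 RNAi, against 12.9, 17.5 and 18.9 in the control. The pseudogene had 0, 6.70 and 3.53 on pos-1 RNAi, against 27.3, 27.7 and 24.1 in the control. Their log2 fold changes were -3.14 ± 0.60, -2.60 ± 0.52 and -3.13 ± 0.60 (adjusted p = 0.0157, 0.0217 and 0.0284). At these levels a treated library held at most 6 estimated reads of nep-10 or of the pseudogene, and related neighbouring genes can share reads. Each of the 3 was called in 4 of the 6 fits with a library left out.

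The other neprilysin genes called were better expressed. On the X chromosome, nep-22 stood at 72.9, 33.2 and 60.9 normalized counts on pos-1 RNAi, against 176, 118.7 and 146 in the control, and fell by 1.33 ± 0.20 on the log2 scale (adjusted p = 0.000855). It was called with each library left out. For nep-17, which overlaps the gene F54F11.5, the values were 2501, 1637 and 2135 on pos-1 RNAi and 3711, 3050 and 3508 in the control (log2 fold change -0.70 ± 0.15, adjusted p = 0.0322), and its call was lost without 4 of the 6 libraries.

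Of the called enzymes that are not peptidases, the omega-class glutathione transferase gsto-1 had the smallest adjusted p. It stood at 125, 97.7 and 132 normalized counts on pos-1 RNAi, against 461, 344 and 479 in the control, and fell 3.58-fold (log2 fold change -1.84 ± 0.24, adjusted p = 3.06e-05). Among enzymes that act on CoA esters, hacd-1 (a hydroxyacyl-CoA dehydrogenase) stood at 223, 145 and 260 on pos-1 RNAi, against 766, 505 and 639 in the control. It fell by 1.58 ± 0.35 on the log2 scale (adjusted p = 0.0491), a call kept in 1 of the 6 fits with a library left out. The enoyl-CoA hydratase gene ech-7 fell by 1.06 ± 0.23 (adjusted p = 0.0482), with 135, 69.3 and 118 on pos-1 RNAi and 308, 170 and 211 in the control. In the list of 14 propionate and vitamin B12 genes none was called by edgeR, 3 had an unadjusted p under 0.05, and the median log2 fold change was -0.10. In it, acdh-1 (an acyl-CoA dehydrogenase of the propionate shunt) stood at 2404, 1439 and 2515 on pos-1 RNAi and at 5256, 4095 and 4417 in the control (log2 fold change -1.10 ± 0.43, adjusted p = 1).

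The other genes that fell were T15B7.1 (log2 fold change -1.001, adjusted p = 0.00207), F36A2.3 (-1.07, adjusted p = 0.00980), the O-acyltransferase family gene oac-59 (-0.99, adjusted p = 0.0217), the cathepsin B-like protease cpr-8 (-0.76, adjusted p = 0.0157), the half-molecule ABC transporter haf-7 (-0.80, adjusted p = 0.0568) and the UDP-glucuronosyltransferase ugt-21 (-0.88, adjusted p = 0.0585). Of these, T15B7.1 alone was called with each library left out. In the list of xenobiotic metabolism genes, ugt-21 was 1 of 183 tested that was called, against 0.0969% of all genes called lower. In this list 21 genes had an unadjusted p under 0.05, and the median was -0.08.

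The clearest rise was that of asp-14, an aspartyl protease family gene. It stood at 193, 168 and 208 normalized counts on pos-1 RNAi, against 49.7, 60.8 and 54.9 in the control. Its log2 fold change was 1.79 ± 0.21 (adjusted p = 5.55e-06), and it was called under each of the 14 alternative settings. Of the 14 asp genes tested it was the one called, against 0.0592% of all genes called higher, and the median of the family was 0.04. F44E7.5 held 1358, 1818 and 1502 normalized counts on pos-1 RNAi, against 681, 1021 and 959 in the control (0.82 ± 0.14, adjusted p = 0.00146). It overlaps a miRNA gene on its own strand and 3 genes on the other strand.

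The pud genes are named for proteins more abundant in daf-2 insulin receptor mutants. They form a cluster of near-identical copies on chromosome V, within chrV:2322038-2330930 of WBcel235, so that reads can be split between copies and their values are uncertain. The 4 members with reads in CB4856 were all called higher, against 0.0592% of all genes, while pud-3 and pud-4 had 0 reads in the 6 libraries. The normalized counts of pud-1.2 were 2877, 3247 and 3736 on pos-1 RNAi, against 1550, 1809 and 2052 in the control (log2 fold change 0.87 ± 0.17, adjusted p = 0.0322). Those of pud-1.1 were 1133, 1622 and 1586 on pos-1 RNAi, against 570, 887 and 927 in the control (0.87 ± 0.17, adjusted p = 0.0284). The remaining genes, WBGene00017490 and WBGene00017500, carry the one symbol pud-2.2 and had almost the same values, with means of 2855 ± 412 on pos-1 RNAi and 1513 ± 298 in the control (SD, n = 3 each). Each rose by 0.92 ± 0.19 on the log2 scale (adjusted p = 0.0529). Control replicate 1 was the lowest library for all 4 genes, and none of the 4 calls was kept without it.

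The remaining 4 genes that rose encode lectin, saposin-like and transthyretin-like proteins. The C-type lectin clec-150 had the narrowest spread, with 380, 371 and 380 normalized counts on pos-1 RNAi, against 238, 242 and 265 in the control (log2 fold change 0.61 ± 0.10, adjusted p = 0.000855). The other lectin, clec-48, stood at 171, 162 and 200 on pos-1 RNAi, against 79.5, 99.1 and 107 in the control (0.91 ± 0.19, adjusted p = 0.0322). These were 2 of 176 C-type lectins tested, and the median of the list was -0.04. Against this and the next 2 counts, the share of all genes called higher was 0.0592%. The saposin-like spp-1 stood at 320, 417 and 347 on pos-1 RNAi, against 138, 233 and 252 in the control (0.80 ± 0.18, adjusted p = 0.0529), 1 of 37 lysozyme and saposin genes, with a list median of 0.20. The transthyretin-like ttr-45 stood at 521, 636 and 473 on pos-1 RNAi, against 304, 332 and 377 in the control (0.69 ± 0.14, adjusted p = 0.0308), 1 of 54 ttr genes tested, of which 39 had a log2 fold change above 0. In the lists of intestinal infection response, epidermal antimicrobial peptide and intracellular pathogen response genes, edgeR called 0 of 19, 0 of 24 and 0 of 32, with 2, 2 and 1 at an unadjusted p under 0.05. Of all genes, 0.156% were called in either direction.

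Genes of the RNAi pathway did not pass the test. The Argonaute ppw-1 averaged 840 ± 58.3 normalized counts on pos-1 RNAi and 853 ± 67.7 in the control (SD, n = 3 each; log2 fold change -0.01 ± 0.11, adjusted p = 1). None was called among 7 genes of dsRNA uptake and transport, 17 of the Dicer complex and primary RNAi, 12 of siRNA amplification and 15 secondary Argonautes. Of all genes 0.156% were called. Lists without a call, here and in the next paragraphs, are therefore close to that share and say little about their members. No member of these 4 lists had an unadjusted p under 0.05 in edgeR's test, and their medians lay between -0.00423 and 0.11. The dsRNA channel sid-1 averaged 356 ± 36.4 on pos-1 RNAi and 331 ± 22.6 in the control, and the primary Argonaute rde-1 averaged 816 ± 58.9 and 878 ± 54.8.

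Maternal and embryonic genes also stayed under the threshold. In the list of 20 maternal RNA-binding proteins and pos-1 targets none was called and 1 had an unadjusted p under 0.05. In this list 19 had a log2 fold change above 0, against 9007 of 18576 genes, with a median of 0.10 and a highest value of 0.25. The 1 below 0 was pos-1 itself (-0.05). The Notch receptor glp-1, whose maternal mRNA POS-1 represses in the embryo, averaged 2260 ± 125 on pos-1 RNAi and 2269 ± 77.7 in the control. Neither par-1 (log2 fold change -0.05 ± 0.17, adjusted p = 1) nor any of the other PAR polarity genes was called, 9 genes in all. Of 46 early zygotic genes, edgeR called 0 and found 0 at an unadjusted p under 0.05 (median 0.04). Of 6 vitellogenins, the yolk proteins made in the intestine, 0 were called and 2 had an unadjusted p under 0.05. The groups did not overlap for 3 of the 6, against 9.27% of all genes. Among these 3, vit-3 and vit-5 were higher in every treated library (log2 fold changes 0.36 and 0.24). In the list 5 genes had a log2 fold change above 0 and 1 below (-0.19).

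Sperm genes leaned to lower values without any call. Of 79 tested, 66 had a log2 fold change below 0, 6 had an unadjusted p under 0.05, and the median was -0.92, against 9029 of 18576 genes below 0 and a median of 0 over all genes. The smallest adjusted p was 0.629. The median was -2.04 without pos-1 RNAi replicate 1, -0.60 without control replicate 3 and -0.60 without pos-1 RNAi replicate 2. The summed abundance of 4 sperm markers was 0.567 to 6.97 TPM on pos-1 RNAi and 8.74 to 17.5 TPM in the control, where it was mostly msp-142. The marker msp-19 went the other way. The male markers reached at most 0.0496 TPM on pos-1 RNAi and 0.0421 TPM in the control. For 158 cuticle collagens, 0 were called and 21 had an unadjusted p under 0.05, with a median of 0.04. With the replicate number as a block in the fit (the replicate block), the collagen col-129 was called lower (log2 fold change -1.34, adjusted p = 0.00408, against -1.24 and 0.642 without the block). The remaining lists (germ granules, eggshell and yolk receptor, F-box, MATH and BATH, chaperones, fatty acid desaturases and elongases, hedgehog-related, cilium, neuropeptides and histones) had no called member, and their medians lay between -0.23 and 0.09.

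The 29 genes were also measured in the other strains, which have controls of their own. All strains were exposed to the bacteria at the same time, and the spread was estimated over all 45 libraries. The strains are therefore not fully independent measurements. In N2, all 29 had reads and the direction seen in CB4856, and 18 were called, which is 62.1% of the CB4856 calls and 45.0% of the 40 calls of N2 (0.215% of genes). JU1088 shared the direction for 28 and the call for 27, or 93.1% of the CB4856 calls and 1.76% of the 1531 calls of JU1088 (8.24% of genes). In QX1211, 25 had reads and 24 of these the same direction, and 9 were called, or 31.0% of the CB4856 calls and 60.0% of the 15 calls there (0.0807% of genes). In EG4348, 24 had reads and 23 the same direction, and 4 were called, or 13.8% of the CB4856 calls and 33.3% of the 12 calls there (0.0646% of genes). Of the 24 genes with reads in all 4 other strains, 22 had the same direction in each. These tallies count any gene with 1 read or more, and nep-10 had 1 read in EG4348 and the pseudogene WBGene00017552 had 2 in N2 and 3 in QX1211, over 6 libraries each, so that their directions there are not measured. The exceptions were clec-150, with a log2 fold change of -0.08 in JU1088, and oac-59, with 0.11 in EG4348 and 0.02 in QX1211.

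The fall of hrg-2 was called in all 5 strains, with log2 fold changes of -1.87 in CB4856, -1.91 in QX1211, -2.47 in EG4348, -2.08 in N2 and -1.90 in JU1088. The same held for nep-22, at -1.33 in CB4856, -1.10 in QX1211, -0.97 in EG4348, -1.61 in N2 and -2.15 in JU1088. The rise of asp-14 was called in CB4856 (1.79), EG4348 (1.39), N2 (1.54) and JU1088 (1.10), and its value in QX1211 was 0.62 (adjusted p = 0.949). Called in CB4856 and in none of the other strains were clec-48 and clec-150. For clec-48 the log2 fold change was 0.91 in CB4856, 0.45 in JU1088, 0.37 in N2, 0.32 in EG4348 and 0.02 in QX1211. Its response in CB4856 did not differ from that of any other strain at an adjusted p under 0.1. For clec-150 in EG4348 the adjusted p was 0.00966, but the log2 fold change of 0.56 fell short of the 1.5-fold minimum. The 4 pud genes had no reads in the 6 pos-1 RNAi and control libraries of QX1211 and EG4348.

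**Figure D4:**
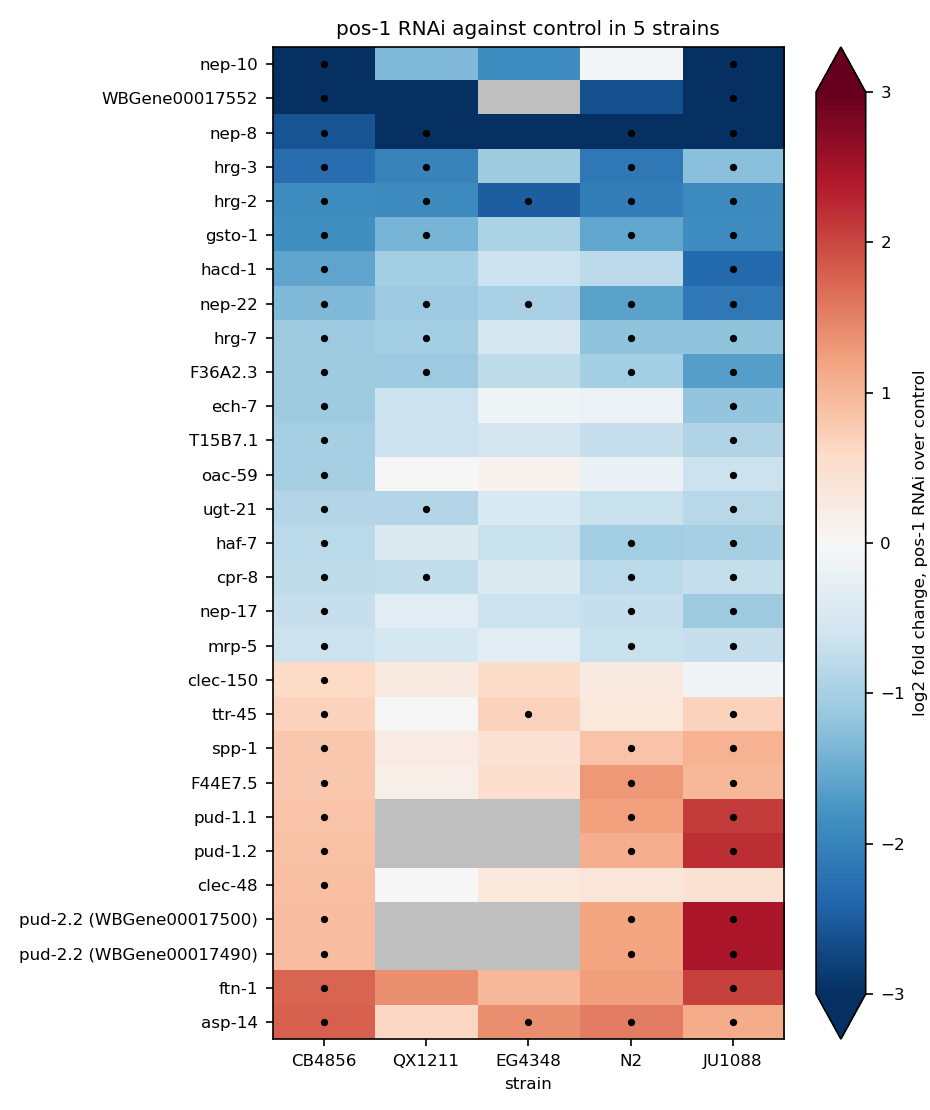
Log2 fold change of pos-1 RNAi over control (colour, red for higher and blue for lower, cut off at -3 and 3) for the 29 genes called in CB4856, in rows, across the 5 strains, in columns. Dots mark calls and grey cells genes without reads in a strain (4 in QX1211 and 5 in EG4348). Colours run the same way along nearly all rows, with dots in 27 rows of JU1088, 18 of N2, 9 of QX1211 and 4 of EG4348.

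Where the response itself was compared between strains, few genes differed beyond the error. Between CB4856 and N2 the difference passed an adjusted p of 0.1 for 1 gene, pos-1 itself (0.00538% of genes), and likewise for pos-1 alone between CB4856 and EG4348 (0.00538%). Between CB4856 and QX1211, the 2 strains described as largely incompetent, edgeR called 0 differences (0%), with 584 genes at an unadjusted p under 0.05, and DESeq2 called 4. The genes with the smallest p against QX1211 were cyp-35C1 (2.15 ± 0.49, adjusted p = 0.958) and C49G7.13 (1.94 ± 0.46, adjusted p = 0.958). C39D10.2 had the smallest p after pos-1 among positive differences from EG4348 (1.98 ± 0.47, adjusted p = 0.938).

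Between CB4856 and JU1088 the response differed for 37 genes (0.199%), 30 of them with a negative and 7 with a positive difference. All 30 were called higher on pos-1 RNAi in JU1088, and 26 of these were not called in CB4856, where their median log2 fold change was -0.17 against 1.82 in JU1088. The 30 genes were chosen by the difference itself, and the 26 also by having no call in CB4856. Their medians therefore follow in part from that choice. The genes below were picked from the 37 after their values were seen. For the homeobox gene ceh-43 the mean was 36.0 ± 9.76 normalized counts on pos-1 RNAi and 35.7 ± 10.4 in the control in CB4856, and 188 ± 138 and 32.4 ± 2.79 in JU1088 (difference -2.55 ± 0.61, adjusted p = 0.0954). For the homeobox gene ceh-32 it was 52.8 ± 9.89 and 53.5 ± 12.3 in CB4856, and 184 ± 52.4 and 52.7 ± 13.0 in JU1088 (-1.91 ± 0.45, adjusted p = 0.0870). The homeobox gene ceh-51 went the other way, with 5.97 ± 0.814 and 5.42 ± 3.71 in CB4856, and 0.538 ± 0.931 and 8.05 ± 1.72 in JU1088 (3.88 ± 0.90, adjusted p = 0.0841). The chitinase gene cht-1 averaged 288 ± 2.38 and 239 ± 98.4 in CB4856, and 1366 ± 524 and 246 ± 64.2 in JU1088 (-2.24 ± 0.45, adjusted p = 0.0346). The genes with the smallest p in each direction after pos-1 were Y39G10AL.1 (-2.15), R08F11.4 (-3.70), pud-1.2 (-1.35), clec-150 (0.68) and rol-1.

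These counts depended on single libraries. Without JU1088 pos-1 RNAi replicate 1, 711 genes differed between the strains, while 1 differed without CB4856 control replicate 2 or JU1088 control replicate 1, and pos-1 differed in each of the 12 fits (3.40 to 3.70). With a JU1088 library left out, the dispersion trend of the full fit was kept. With a CB4856 library left out it was estimated again, so these counts come from unlike fits. Of the other libraries, leaving out CB4856 control replicate 3 or pos-1 RNAi replicate 1 or 3, JU1088 control replicate 2 or 3, or JU1088 pos-1 RNAi replicate 2 gave 16, 4, 9, 13, 3 and 5 genes. Without CB4856 control replicate 1, CB4856 pos-1 RNAi replicate 2 or JU1088 pos-1 RNAi replicate 3 the counts were 49, 54 and 39. The fragment length given to Salmon for JU1088 pos-1 RNAi replicate 2 is the same as that of 2 libraries of other strains.

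Of the 29 CB4856 calls, 5 were among these differences. The 4 pud genes rose more in JU1088 (log2 fold changes of 2.10 to 2.44) than in CB4856 (0.87 to 0.92), with differences of -1.52 for each pud-2.2 gene, -1.35 for pud-1.2 and -1.24 for pud-1.1 (adjusted p = 0.0346, 0.0346, 0.0346 and 0.0395). In CB4856 the control level was also higher, with 1804 ± 251 normalized counts of pud-1.2 against 1035 in JU1088. The fifth, clec-150, rose in CB4856 but averaged 273 on pos-1 RNAi and 292 in the control in JU1088 (difference 0.68 ± 0.14, adjusted p = 0.0346). Seen from JU1088, 984 genes were called higher there and 547 lower. Of these, 9 and 18 were called in CB4856 as well, and the medians in CB4856 were 0.15 and -0.25 against 1.45 and -1.21 in JU1088.

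In CB4856, pos-1 RNAi was also compared directly with par-1 RNAi, which uses the same bacterial strain with another double-stranded RNA. Between them 1126 genes differed (6.06%), 151 higher on pos-1 RNAi (0.813%) and 975 lower (5.25%). DESeq2 called 510, and leaving out a library gave between 614 (par-1 RNAi replicate 1) and 1154 genes, with 621 and 630 without pos-1 RNAi replicates 2 and 3. Against the control, which both treatments share, par-1 RNAi moved 819 genes (4.41%). The fragment length given for par-1 RNAi replicate 3 is also the same as that of 2 libraries of other strains, and 892 genes differed without it.

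Of the 29 genes, 10 differed between the treatments. On pos-1 RNAi, 6 were lower (nep-10, nep-22, hacd-1, ech-7, T15B7.1 and oac-59) and 4 higher (clec-150, clec-48, F44E7.5 and ftn-1). For nep-22 the mean was 55.7 ± 20.4 normalized counts on pos-1 RNAi and 329 ± 20.5 on par-1 RNAi, with 147 ± 28.8 in the control (SD, n = 3 each; pos-1 over par-1 RNAi -2.50 ± 0.20 on the log2 scale, adjusted p = 1.88e-10). For F44E7.5 the mean was 1559 on pos-1 RNAi and 373 ± 14.0 on par-1 RNAi, with 887 ± 181 in the control (2.07 ± 0.14, adjusted p = 2.41e-12). These genes thus moved to opposite sides of the control under the 2 treatments, with log2 fold changes against the control of -1.33 on pos-1 RNAi and 1.17 on par-1 RNAi for nep-22, and of 0.82 and -1.25 for F44E7.5. For hacd-1 the means were 209 ± 58.9 on pos-1 RNAi and 631 ± 73.3 on par-1 RNAi, with 637 ± 130 in the control (-1.57 ± 0.35, adjusted p = 0.00535). The ferritin ftn-1 averaged 111 ± 65.4 on pos-1 RNAi and 30.2 ± 5.76 on par-1 RNAi (1.86 ± 0.39, adjusted p = 0.00306).

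The other 19 genes did not pass the threshold between the treatments. For hrg-3 the means were 28.1 ± 2.202 on pos-1 RNAi and 22.9 ± 1.84 on par-1 RNAi (0.30 ± 0.41, adjusted p = 0.746), and for hrg-2 they were 23.2 ± 6.92 and 15.1 ± 5.68 (0.63 ± 0.35, adjusted p = 0.302). For hrg-7 they were 2990 ± 570 and 3089 ± 287 (-0.04 ± 0.17, adjusted p = 0.969), and for asp-14 190 ± 20.4 and 211 ± 21.9 (-0.14 ± 0.19, adjusted p = 0.759). Against the shared control, the log2 fold changes of these 4 genes were -2.29, -1.87, -1.09 and 1.79 on pos-1 RNAi, and -2.59, -2.50, -1.05 and 1.92 on par-1 RNAi.

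Among the genes with the smallest p between pos-1 and par-1 RNAi, 4 were not called on pos-1 RNAi against the control. The gene anp-1 averaged 580 ± 6.07 normalized counts on pos-1 RNAi and 279 on par-1 RNAi, with 601 ± 24.7 in the control (1.07 ± 0.10, adjusted p = 3.75e-09). For tbh-1, the enzyme that makes octopamine, the means were 2309 ± 81.9 on pos-1 RNAi and 1440 on par-1 RNAi, with 2339 ± 140 in the control (0.69 ± 0.07, adjusted p = 7.28e-09). The GTP cyclohydrolase gene cat-4, which supplies a cofactor of serotonin and dopamine synthesis, averaged 315 ± 27.4 on pos-1 RNAi and 845 on par-1 RNAi, with 437 ± 28.5 in the control (-1.41 ± 0.12, adjusted p = 6.41e-10). C18B2.4 averaged 224 ± 4.92 on pos-1 RNAi and 437 on par-1 RNAi, with 255 ± 8.12 in the control (-0.95 ± 0.08, adjusted p = 6.41e-10).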

How the data were processed

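RNA of whole animals was sequenced in 45 libraries, 6 of which make up the comparison. The authors trimmed reads with Trimmomatic 0.3.9 and ran Salmon on transcriptomes built per strain, from WS276 and the variants of that strain. The deposited files give, per transcript, the estimated counts of reads, TPM and the effective length. The deposited table of signal values holds the authors' DESeq2-normalized counts per gene, which are used for single genes.

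These counts were added up over the transcripts of a gene and rounded. Of 65173 transcripts, 6635 were matched to the Ensembl annotation of WBcel235 by sequence name and 19 were unmatched. Genes with at least 10 reads over the 45 libraries were tested with edgeR 4.0.16 in R 4.3.3 (TMM factors, average transcript length offsets, trended dispersion, quasi-likelihood F test) with 1 mean per strain and treatment. SEs were derived from the F statistic, and intervals are 95%. Differences between strains were called at an adjusted p under 0.1. The steps were tested on simulated data. Alternatives were RLE factors, no length offset, other filters, DESeq2 1.42.0 with ashr 2.2.63, fewer libraries, a replicate block and each library left out. Where the library left out was of another strain, the dispersion trend of the full fit was kept.

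Same-numbered pos-1 RNAi and control libraries deviated together over genes (correlations of 0.35, 0.33 and 0.21), though no label states a shared batch. The main fit did not pair the samples. The replicate block, which pairs them, was run as an alternative and called 40 genes, the 29 among them. The named genes were pos-1, par-1 and ppw-1, all called genes, called members of the 29 lists, and the 3 genes of smallest p per direction in each contrast between strains and with par-1 RNAi. Single genes of lists beyond these were named after their values were seen. The comparison and the lists were chosen with earlier results of these data known. A planned count of promoter motifs was not analysed here.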

Additional observations from a re-analysis of the deposited data

Results flagged for a closer look

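Responses to pos-1 RNAi that differed between CB4856 and another strain, by edgeR's test of the difference itself, are given here on the log2 scale as CB4856 minus the other strain. For pos-1 the difference was 3.54 from JU1088, 2.53 from N2 and 1.19 from EG4348. From JU1088 the difference was -1.24 for pud-1.1, -1.35 for pud-1.2 and -1.52 for each of WBGene00017490 and WBGene00017500 (pud-2.2), which rose in both strains. It was 0.68 for clec-150, -2.15 for Y39G10AL.1 and -3.70 for R08F11.4. For rol-1 the fitted value of 9.69 has no interpretable size, because the gene had 0 normalized counts in the JU1088 pos-1 RNAi libraries, and its CB4856 means were 16.1 ± 13.0 on pos-1 RNAi and 3.06 ± 4.80 in the control (SD, n = 3 each).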

How the results depend on the processing

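The 29 genes called in CB4856 kept their direction under all 14 alternatives (8 settings and 6 libraries left out). Their groups did not overlap, so that the kept direction is no further support. Of the 29, 3 were called under each alternative, and 8 were called with each library left out. With the 6 libraries fitted alone 3 genes were called, 1 higher and 2 lower. With a library left out 10 to 36 were called, 2 to 14 higher and 8 to 22 lower. With the replicate block 40 were called (16 higher and 24 lower), the 29 among them. Of the 11 added genes, col-129 belongs to the cuticle collagens, of which none was called without the block. With the block 53 genes differed from JU1088, 35 of the 37 among them, and no other call named in the report changed. Between pos-1 and par-1 RNAi, DESeq2 called 510 genes (65 higher and 445 lower), 2278 passed with no fold minimum (1076 higher), 741 passed an adjusted p of 0.05 (637 lower), and 614 to 1154 with a library left out (84 to 220 higher and 519 to 934 lower). DESeq2 found 65 differences in response from JU1088, 2 from N2, 2 from EG4348 and 4 from QX1211. With a library left out there were 1 to 711 from JU1088 and 1 to 2 from EG4348. The cause of these changes was not tested. The log2 fold change of pos-1 lay between -0.10 and 0.00085 with a library left out, and turned positive without pos-1 RNAi replicate 1. That of ppw-1 lay between -0.075 and 0.023, and turned positive without control replicate 3 (0.023) or pos-1 RNAi replicate 2 (0.016). Weakly expressed genes such as nep-8 and nep-10 rest on few reads. A planned count of promoter motifs was not run.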
